A study of Mus musculus and synthetic construct with 21 samples.

Results

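The ctrl, ctrl5 and native elements of reporter pool 2 are designed DNA elements built on 25 sites of the mouse genome whose names mark them as PPAR response elements. Each site has 1 element whose name ends in ctrl, 1 whose name ends in ctrl5, and 1 native element, the one in series bound0 that carries the site's own number as motif number. They were chosen by these names and make up 75 of the 1350 elements of the pool. The names do not say what was changed in ctrl or ctrl5, and the full sequences of these elements were not used here, so the forms are called by their names.

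The assay was a massively parallel reporter assay, in which a pool of plasmids is transfected together and each element is read through barcodes of 16 bp in the reporter RNA. The host was 3T3-L1, a mouse pre-adipocyte line that can become fat cells in culture. Confluent cells received insulin at 1.7 µM, dexamethasone at 1 µM and IBMX at 0.5 mM in medium with 10% FBS for 48 h, and FBS medium alone after that. Pool 2 had 1 RNA library, taken 16 h after transfection, and 1 plasmid library, so all elements shared the same cells and the same treatment. The libraries held 17716666 RNA and 46101162 plasmid counts, with 20 barcodes per element. No library had a replicate: each p-value below covers the spread between barcodes within 1 transfection and not the variation between cultures. Reads carried no molecular identifiers, so counts are not independent molecules.

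PPARγ, a nuclear receptor, is the central regulator of fat cell formation. With its partner RXR, the retinoid X receptor, it recognises a DR1 motif, a direct repeat of AGGTCA with 1 base between the copies. Transcription from such an element depends on the motif and also on the sequence around it, where other factors can bind.

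The sites differed in how close their motif is to DR1. The 16 bases that the names give for 8 sites follow, the 4 where ctrl stood lowest against ctrl5 and the 4 where it stood highest, so that the motifs at both ends can be compared. Capitals mark bases that equal the consensus, which was laid over bases 4 to 16, and the spacer is in lower case. Each is read 5′ to 3′ as named, with the strand of the name, and mm9 positions are counted from 1.
Site 322, chr7:135093083-135093098, + strand, 4 mismatches: tgtgGGTaAaAGtgCA
Site 100, chr19:38841002-38841017, - strand, 3 mismatches: ggtAGGgCAaAGGggA
Site 707, chr16:59639568-59639583, - strand, 4 mismatches: actAGGgacagGGTCA
Site 614, chr3:115883632-115883647, + strand, 3 mismatches: tctgGGaCAaAGGTtA
Site 704, chr6:13529562-13529577, + strand, 3 mismatches: actgGGaCAaAtGTCA
Site 509, chr9:55101544-55101559, + strand, 3 mismatches: tcaAaGcCAaAGGTgA
Site 46, chr4:45013055-45013070, + strand, 5 mismatches: actgtGatAaAGGTCt
Site 705, chr3:145812074-145812089, - strand, 2 mismatches: gctAGGgCAaAGGaCA

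The ctrl form was less active than the ctrl5 form at most sites, and by very different amounts. Activity is the median over barcodes of the log2 ratio of RNA to plasmid, each count raised by 1 and scaled to its library total, for barcodes with at least 20 plasmid counts. A value of 0 is the ratio of the 2 library totals. Mean activity was -2.48 ± 0.57 for ctrl, -0.91 ± 1.30 for ctrl5 and -0.48 ± 1.34 for native elements (SD, n = 25 sites). The difference ctrl minus ctrl5 averaged -1.57 ± 1.39, with a median of -1.30, and was below 0 at 22 sites and above 0 at 3. Without site 322, which had the largest difference, the mean was -1.39 ± 1.09.

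Tested over barcodes site by site, ctrl was lower than ctrl5 at 17 of 25 sites (68% called) and higher at 0 (0% called). No site had a higher ctrl at an unadjusted p under 0.05 either, and 18 had a lower one. The test permuted barcodes between the elements with the difference of medians as its measure, and p-values were adjusted by Benjamini-Hochberg over all 1350 comparisons of pool 2. Against the native element of the site, ctrl was lower at 20 sites (80%) and higher at 0 (0%), while ctrl5 was lower at 8 (32%) and higher at 1 (4%). Both comparisons share the native elements. With odd-numbered barcodes only, 10 per element, ctrl was lower than ctrl5 at 10 sites and ctrl5 lower than native at 3. With even-numbered barcodes these counts were 14 and 4. With the bound5 element as native, ctrl5 was lower than native at 11 sites. Among the 1275 other elements of the pool, 28.2% were lower than the native element of their site and 8.16% higher. These include the elements named mut, which were lower at 20 of 25 sites (80%) and higher at 1. Those named dr1 were lower at 14 (56%) and higher at 0. The share of sites lower than native was thus the same for ctrl and mut.

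A measure of the spread between separately barcoded elements came from the site's own motif number, which occurs once in series bound0 and once in series bound5. The names do not say whether those elements have identical sequence. Own bound5 minus own bound0 was 0.11 ± 0.29 (SD, n = 25 sites), and the size of the difference was at most 0.76, at site 211. Ctrl and ctrl5 differed by more than that in size at 20 sites, ctrl and native at 20, and ctrl5 and native at 6. For ctrl against ctrl5, sites 211, 360 and 39 are among the 20 although their differences were not called. Barcodes also scattered more in ctrl, with a median SD of 1.18, against 0.99 in own bound0 and 0.84 in own bound5 elements. The measure may thus be too narrow for ctrl.

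The widest gap was at site 322. Its 20 ctrl barcodes ran from -5.20 to -0.82 with a median of -3.28, its 20 ctrl5 barcodes from 1.22 to 3.39 with a median of 2.55, and its 20 native barcodes from 0.00 to 3.31 with a median of 2.65. No ctrl barcode reached the lowest ctrl5 barcode. In raw reads, ctrl had 1055 RNA counts from 21984 plasmid counts, and ctrl5 had 91374 RNA counts from 43811 plasmid counts. The ratio of medians put ctrl5 at 56.8 times the activity of ctrl (difference -5.83, permutation adjusted p = 0.000178). This adjusted p goes with a raw p of 1e-05, the smallest that 100000 permutations can give. From summed counts the difference between ctrl and ctrl5 was -5.44. The ctrl5 form differed from native by only -0.10 at this site (permutation adjusted p = 0.747).

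Sites 100, 707 and 614 followed. At site 100, ctrl was at -2.93 ± 0.97, ctrl5 at 1.03 ± 1.07 and native at 1.42 ± 0.48 (SD over 20 barcodes each). Its barcodes ran from -4.55 to -0.96 in ctrl, -2.30 to 2.19 in ctrl5 and -0.28 to 2.04 in native, and its ctrl element gave 2043 RNA counts from 32976 plasmid counts, where ctrl5 gave 35303 from 47819. Most ctrl barcodes thus lay below most ctrl5 barcodes, although the full ranges overlapped. At site 707, activity was -2.85 ± 1.51 in ctrl, 0.25 ± 0.73 in ctrl5 and 1.23 ± 0.59 in native, with barcodes from -5.97 to -0.31 in ctrl, -1.48 to 1.05 in ctrl5 and -0.35 to 1.90 in native. At site 614, it was -2.51 ± 0.99 in ctrl, 0.31 ± 0.68 in ctrl5 and 0.20 ± 0.57 in native, with barcodes from -4.81 to -0.89 in ctrl, -1.78 to 1.03 in ctrl5 and -1.29 to 0.61 in native. At all 3 sites the interquartile ranges of ctrl and ctrl5 were apart. The differences of -3.96, -3.10 and -2.82 had the same permutation adjusted p as site 322, 0.000178. From summed counts they were -3.57, -2.94 and -2.45. The ctrl5 form was lower than native, by -0.39 and -0.98, at sites 100 (permutation adjusted p = 0.0262) and 707 (0.000327), and at site 614 its difference of 0.11 did not pass (0.718).

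At the next 6 sites in order, ctrl was again called lower than ctrl5, and ctrl5 lay above native at site 246 and below it at the others. Site 246 had activities of -2.21 in ctrl, 0.42 in ctrl5 and -0.30 in native, and it shared with site 322 alone that no ctrl barcode overlapped a ctrl5 barcode. Its ctrl element carried 909020 plasmid counts, against 8760 to 97737 for the ctrl elements of the other 24 sites. Site 591 had -3.19 in ctrl, -0.62 in ctrl5 and 0.75 in native.
Site 539 had -2.73 in ctrl, -0.51 in ctrl5 and -0.20 in native. The difference between ctrl5 and native, -0.31, did not pass there (permutation adjusted p = 0.375). Site 142 had -1.23 in ctrl, the highest ctrl activity of all sites, with 0.66 in ctrl5 and 0.74 in native. Its ctrl element had the fewest plasmid counts of all ctrl elements, 8760, against 41961 in its ctrl5 element. That ctrl value rests on 19 barcodes with an SD of 1.36. Site 227 had -2.33 in ctrl, -0.48 in ctrl5 and -0.02 in native. Site 638 had -1.37 in ctrl, 0.06 in ctrl5 and 0.71 in native. For these 6 sites the permutation adjusted p of ctrl against ctrl5 lay between 0.000178 and 0.0034. With odd-numbered barcodes only, the call was lost at site 227, with a difference of -1.16 in place of -1.84, and at site 638, with -1.26 in place of -1.43. From summed counts the difference at site 227 was -2.28.

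Smaller called differences, from -1.39 to -0.91, came from sites whose ctrl5 form was itself below 0. Site 685 had -1.88 in ctrl and -0.49 in ctrl5, and was the only site where ctrl5 was called higher than native (ctrl5 minus native 0.51, permutation adjusted p = 0.0493). That call was lost with odd-numbered barcodes, with even-numbered barcodes and with the bound5 element as native. Site 126 had -2.43 in ctrl, -1.07 in ctrl5 and 0.38 in native. Its ctrl5 form thus lay near the middle between ctrl and native, and its difference of -1.36 between ctrl and ctrl5 was -1.21 and no longer called with odd-numbered barcodes. Site 92 had -2.53 in ctrl, -1.23 in ctrl5 and -1.48 in native. Site 413 had -2.77 in ctrl, -1.67 in ctrl5 and -0.34 in native, with a difference of -1.11 between ctrl and ctrl5 (permutation adjusted p = 0.0339). With barcode means in place of medians that difference was -0.56, and over all alternatives its permutation adjusted p ran from 0.0104 to 0.886.
Sites 342, 249 and 281 had native elements at -1.98, -0.97 and -1.33. Site 342 had -3.19 in ctrl and -2.15 in ctrl5. Site 249 had -2.39 in ctrl and -1.42 in ctrl5, and site 281 had -2.25 in ctrl and -1.33 in ctrl5. The permutation adjusted p of ctrl against ctrl5 was 0.024, 0.0361 and 0.037 at these 3 sites. Sites 342 and 249 lost the call with odd-numbered and also with even-numbered barcodes, at differences of -1.17 and -0.94 for site 342 and -0.86 and -1.15 for site 249. The difference at site 281 was -0.041 in the odd-numbered barcodes alone, where it did not pass, and -1.97 in the even-numbered ones. At site 92 it was -1.30 with all barcodes and -0.26, which did not pass, in the even-numbered ones.

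At 8 sites the difference between ctrl and ctrl5 did not pass, and these sites were of different kinds. At sites 39 and 199 both forms were far below the native element. Site 39 had -3.28 in ctrl, -2.44 in ctrl5 and -0.23 in native, and site 199 had -2.62 in ctrl, -2.03 in ctrl5 and -0.27 in native. Both forms were called lower than native at these sites (for ctrl5, permutation adjusted p = 0.000178 at site 39 and 0.0249 at site 199), and ctrl5 minus native, at -2.21 and -1.77, was lowest there among the 25 sites. Ctrl against ctrl5 had a permutation adjusted p of 0.502 at site 39 and 0.334 at site 199. From summed barcode counts these differences were -0.24 at site 39 and -1.18 at site 199, in place of -0.84 and -0.58. With even-numbered barcodes the difference at site 39 was 0.015, so its sign turned, and at site 199 it was -1.40, beside -0.096 with odd-numbered ones.

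At sites 360, 704, 509 and 705 the native element was itself at or below -1.61, and no form was called different from another. Site 360 had -3.02 in ctrl, -2.18 in ctrl5 and -2.60 in native. Site 704 had -1.99 ± 1.30 in ctrl, -1.90 ± 1.04 in ctrl5 and -1.61 ± 1.15 in native. Its barcodes ran from -5.30 to 0.06 in ctrl, -3.26 to 0.48 in ctrl5 and -4.50 to 0.51 in native. Site 509 had -2.47 ± 0.81 in ctrl, -2.54 ± 0.89 in ctrl5 and -2.66 ± 1.05 in native, all from 20 barcodes, and 3166 RNA counts from 46946 plasmid counts in ctrl, beside 4138 from 55178 in ctrl5. The element of this site named mut was at -1.17, above all 3 values. Site 705 had -2.48 ± 1.41 in ctrl, -2.83 ± 1.41 in ctrl5 and -2.56 ± 0.99 in native, with barcodes from -4.65 to 0.72 in ctrl, -5.78 to -0.82 in ctrl5 and -4.29 to -0.59 in native. The permutation adjusted p of ctrl against ctrl5 was 0.427 at site 360, 0.939 at site 704, 0.994 at site 509 and 0.762 at site 705. From summed counts the difference was -0.53 at site 360, -0.68 at site 704 and 1.08 at site 705, in place of -0.85, -0.09 and 0.35. The sign itself turned with odd-numbered barcodes at site 360, to 0.87, at site 509, to -0.27 in place of 0.07, and at site 705, to -0.035. With even-numbered barcodes the difference was -1.19 at site 360, 0.25 at site 509, 0.96 at site 705 and -0.83 at site 704.

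Sites 46 and 211 stood apart from these groups. Site 46 had one of the highest ctrl activities, -1.39 ± 1.03, with -1.67 ± 1.06 in ctrl5 and -1.02 ± 1.35 in native (SD over 20 barcodes each), and its ctrl minus ctrl5 difference of 0.29 did not pass (permutation adjusted p = 0.777). Its barcodes ran from -3.18 to 0.00 in ctrl, -3.80 to -0.07 in ctrl5 and -4.08 to 1.82 in native. The difference was 0.80 with odd-numbered barcodes and -0.062 with even-numbered ones, so its sign turned. Site 211 had -2.60 in ctrl, -1.50 in ctrl5 and -1.51 in native. Its ctrl5 element had 1692 plasmid counts and 15 barcodes over the minimum, while the other ctrl5 elements had at least 15839 counts. The difference of -1.10 there had a permutation adjusted p of 0.0774, and with no minimum on plasmid counts the difference was -1.76. Over all alternatives its permutation adjusted p ran from 0.00107 to 0.539. The mean of ctrl minus ctrl5 without sites 211 and 246, which had the thinnest ctrl5 and the deepest ctrl element, was -1.54 ± 1.43.

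The ctrl and ctrl5 forms ordered the sites differently. Across the 25 sites ctrl5 activity followed native activity, with r = 0.847 and rho = 0.797, and with r = 0.773 when the 2 sites with native activity farthest from the median, 322 and 509, were left out. For ctrl and native activity r was -0.083 and rho -0.137, and for ctrl and ctrl5 r was 0.061 and rho 0.158. The range over sites was from -3.28 to -1.23 in ctrl, from -2.83 to 2.55 in ctrl5 and from -2.66 to 2.65 in native elements. The gap between ctrl and ctrl5 had r = -0.911 with ctrl5 and r = 0.356 with ctrl. Both values are built in, since the gap contains both forms and ctrl5 varied more over sites (SD 1.30, against 0.57 in ctrl). They are therefore no separate result about the gap. These are descriptions over 25 sites of 1 transfection, and the elements share the library totals.

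Other elements of the pool place both forms more closely. Each site also carried the motifs of the 24 other sites, in series bound0 and bound5. Ctrl5 lay inside the range of the 24 foreign bound5 elements of its own site at all 25 sites, with 2 to 21 of them below it. An element like these 24 would mostly fall inside their range, so this does not set ctrl5 apart. Elements with mod added to their name, such as 199_bound5_mod at site 92, were counted in their series. Ctrl lay below all 24 at 10 sites. It was the lowest of all 54 elements of the site at 9 sites, and at most 5 elements were lower at 17 sites. Averaged per site, foreign bound5 activity went with ctrl5 (r = 0.922, rho = 0.893, and r = 0.892 without sites 322 and 707). Foreign bound0 activity went with ctrl5 almost as closely (r = 0.888, rho = 0.883, and r = 0.844 without the same sites). With ctrl, r was -0.019 and rho -0.004 for bound5, and -0.119 and -0.109 for bound0. The foreign bound5 elements differed from native by -0.42 ± 0.92 (SD, n = 600 elements), beside -0.43 ± 0.73 for ctrl5 (n = 25), and 33.7% of them were called lower than native and 9.67% higher.

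Elements named mut and dr1 lay between ctrl and ctrl5 on average. Mean activity was -1.86 ± 0.80 in mut and -1.42 ± 1.01 in dr1 elements (SD, n = 25 sites). Ctrl was below mut at 19 of 25 sites, by -0.61 ± 1.09 on average, with the largest gap of -3.86 at site 322, whose mut element was at 0.58. Ctrl5 was above mut at 20 sites and above dr1 at 20 sites. These differences were not tested.

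Pools 1 and 4 measured the same 25 sites in other libraries, at levels that are not comparable between pools. Pool 4 has a ctrl form of its own, which was below its wt element at 23 of 25 sites, by -1.66 ± 1.32 (SD). In pool 1 each site number has a w element at the position of the pool 2 site and a c element at another position in the genome, with the same 16 bases in both names at all 25 numbers. Native c elements were below native w elements at 24 of the 25 numbers, by -2.15 ± 1.48.

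Ctrl activity in pool 2 followed the native c elements of pool 1 and the ctrl form of pool 4. Over 25 sites it went with native c activity of pool 1 (r = 0.875, rho = 0.778) and with ctrl of pool 4 (r = 0.676, rho = 0.623). With native w activity of pool 1 r was -0.077, and with wt of pool 4 it was -0.075. Pool 1 also has an altered form of each c element, and with that form r was 0.172 (rho = 0.171). Sites 142, 638 and 46, looked at because their values stood out, had the highest ctrl activities, -1.23, -1.37 and -1.39. Their native c elements were at 1.35, 1.21 and 1.10 in pool 1, while the other 22 ran from -1.25 to -0.082. In pool 4 their ctrl forms were at -1.09, -0.57 and 0.051, within or above the -2.21 to -0.94 of the other 22. Without these 3 sites r was 0.682 with pool 1 and 0.409 with pool 4. Using the even-numbered barcodes only, over all 25 sites, r was 0.577 with pool 1 and 0.362 with pool 4, and with the odd-numbered ones 0.838 and 0.637.

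Ctrl5 activity followed the elements at the position of the pool 2 site. It went with native w activity of pool 1 (r = 0.735, rho = 0.680; r = 0.631 without sites 322 and 509) and with wt of pool 4 (r = 0.786, rho = 0.742; r = 0.754 without sites 211 and 322). It also went with altered forms at that position, with r = 0.635 (rho = 0.531) for the altered w elements of pool 1. With mut of pool 4 r was 0.666 (rho = 0.567). With native c activity of pool 1 r was 0.123, with the altered c form -0.345, and with ctrl of pool 4 -0.001. For comparison, native activity of pool 2 had r = 0.965 with native w activity of pool 1 and r = 0.944 with wt of pool 4. The names carry the same motif bases for a site in every form, so the names do not give the bases that ctrl and ctrl5 hold. These relations across pools were computed after the data were seen, and elements of a pool share its libraries.

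The match of the site's named motif to DR1 was only weakly related to the gap between ctrl and ctrl5. The median difference was -0.85 at the 3 sites with 2 mismatches, -1.20 at the 12 sites with 3, -2.21 at the 8 sites with 4 and -0.80 at the 2 sites with 5. Over 25 sites r between mismatches and the difference was -0.230 (rho = -0.289). Site 322, with the widest gap, and site 281, with one of the narrowest called gaps, both had 4 mismatches.

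Barcodes scattered most in the ctrl form. The SD over barcodes of an element had a median of 1.18 in ctrl, 0.89 in ctrl5 and 0.99 in native elements. Of the 500 barcodes of each form, 499 of ctrl, 495 of ctrl5 and 500 of native passed the plasmid minimum, and each of them had at least 1 RNA count. The median barcode had 90 RNA and 1192 plasmid counts in ctrl, 238 and 1236 in ctrl5, and 329 and 1372 in native elements. Median plasmid depth per barcode over all sites was thus close in the 3 forms, while RNA depth was lower in ctrl. Within a site the plasmid counts of ctrl and ctrl5 could differ in either direction. They were 8760 and 41961 at site 142, and 97737 and 22016 at site 342. Interquartile ranges of ctrl and ctrl5 barcodes did not overlap at 13 sites.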

How the data were processed

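Barcode reads of reporter transcripts and plasmids were measured, with 1 RNA and 1 plasmid library for pool 2. The deposited values were raw counts per barcode, per the file headers and the design text of the series; the build named in the submitters' processing notes was mm9, and the counting tool is not given in the sources used here. Counts of pools 1 and 4, with 9 and 13 barcodes per element, were used at the same sites; pool 4, which the design text lists among pools with summed counts, was deposited per barcode and used so.

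Activity was computed per barcode (pseudocount 1, at least 20 plasmid counts) and summarised by the median, with Python 3.11.15, numpy 2.4.6, pandas 2.3.3 and scipy 1.17.1. The permutation test of medians was 2-sided with 100000 permutations. It ran on every other element against the native element of its site and on ctrl against ctrl5 (1350 comparisons). It was tried on simulated counts with the same barcode spread in all elements, which does not cover forms of unequal spread. Sites were called at an adjusted p under 0.05. No p is given over sites. Full values are given for the 4 lowest and 4 highest differences. Positions were read from the names, adding 1 to the start so that they span 16 bases. No genome annotation of mm9 was used, so sites are not assigned to genes, exons or introns. The members and tests were chosen with earlier results of these data known. ChIP counts hold no ctrl or ctrl5 elements and were not used. Alternatives changed the pseudocount, the plasmid minimum, the summary, the barcodes used and the native element.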

Additional observations from a re-analysis of the deposited data

How the results depend on the processing

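The mean of ctrl minus ctrl5 stayed between -1.67 and -1.39 in the 8 alternatives (pseudocounts of 0.5 and 5, no plasmid minimum, a minimum of 100, barcode means, summed counts, odd or even barcodes), that of ctrl minus native between -2.11 and -1.88, and that of ctrl5 minus native between -0.55 and -0.38, the last pair also with native elements of series bound5. With odd barcodes only, which leaves 10 per element, ctrl was lower than ctrl5 at 10 sites, and ctrl5 was lower than native at 3. With even barcodes ctrl5 was lower than native at 4, and with bound5 native elements at 11, against 8 in the values reported. The 1 site where ctrl5 was higher than native became 0 with odd barcodes, with even barcodes and with bound5 native elements. The correlations of ctrl that were computed after the data were seen moved with even barcodes. They became 0.577 with native c elements of pool 1, 0.362 with ctrl of pool 4 and -0.185 with native elements of pool 2. With odd barcodes, as many per element, they were 0.838, 0.637 and -0.049, and the cause of the difference was not tested. Among single sites, the call of ctrl below ctrl5 was lost with odd barcodes at sites 227, 638, 126, 413, 342, 249 and 281, and with even barcodes at sites 92, 342 and 249. Site 413 also lost it with a pseudocount of 5, a minimum of 100 and barcode means, while site 211 gained it with a pseudocount of 5, no minimum and barcode means. No called difference turned its sign. Differences that were not called turned theirs at sites 360, 509 and 705 with odd barcodes, at sites 39 and 46 with even barcodes, and at site 509 also with barcode means and summed counts. Summed counts have no barcode test, so they gave no counts of called sites. They moved the difference by more than 0.291 at 9 sites, among them 322, 100, 614 and 227. Forms were compared within the same site, but no analysis over replicate cultures was possible because each pool has 1 RNA and 1 plasmid library. Precision is limited by the 20 barcodes per element and, at site 211, by few plasmid counts in ctrl5.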
